A study of Mus musculus with 22 samples.

Results

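In whole brain of the mouse strain DBA/2J (D2), 10 genes each had 1 probeset whose level was lower by 5.04 to 6.44 on the log2 scale, while the rest of the gene's probesets stayed within 1.10 of their level in C57BL/6J (B6). The genes were Metap2, Arpp21, Fxyd7, Ndrg3, Rere, Ptprj, Pcx, Klhl20, Ociad1 and Tcp11l1, 10 of the 22251 genes that the platform annotation names alone on a probeset. They were chosen by the same D2 and B6 values that are shown here, because each held a probeset with 1 of the largest falls in D2 relative to its gene. The size of that fall is therefore a description and carries no test. All 257 rows that list 1 of these symbols alone were used. Of these, 255 held values, 2 were empty on all arrays, and 246 passed the filter on low values described below.

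The groups were 12 D2 and 10 B6 mice, all naive adult males of inbred strains, with 1 array of whole-brain total RNA per mouse. The array was the Affymetrix Mouse Exon 1.0 ST, and the series was made to compare splicing between the strains, going by its title. A whole brain mixes all of its cell types, so fewer cells of a type and less RNA per cell cannot be told apart. Array medians over all probesets ran from 1.45 to 1.51 (log2) in D2 and from 1.41 to 1.47 in B6. The labelled tissue showed in its markers, with gene values (log2) of 10.01 in D2 and 10.12 in B6 for the neuronal gene Snap25 and of 8.34 in D2 and 8.41 in B6 for the myelin gene Mbp. The liver gene Alb was at 2.73 in D2 and 2.55 in B6. Glo1, which lies in a segment duplicated in D2, was higher in D2 by 0.86 (7.28 ± 0.24 in D2, n = 12, and 6.41 ± 0.11 in B6, n = 10, SD). The D2 arrays of replicates 13, 14 and 19 correlated least with their own strain. Without them, the level differences of the 10 probesets ran from -6.44 to -4.92. On gene value 3 of the 10 genes were then called, as many as with all arrays, against 7.57% of all genes tested (10.8% with all arrays). Each gene value includes the probeset chosen on this contrast, so nothing is read from that count.

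An exon array reads a transcript through several probesets, each a small group of probes that bind 1 stretch of it, usually within an exon. When the amount of a transcript differs, all of its probesets move together. When 1 exon is skipped or 1 end of the transcript is not made, the probesets there move alone. A probeset also moves alone where the RNA binds its probes less well, and the values of the array cannot tell these cases apart. Probe sequences, exon positions and strain variants were not analysed here, so a probeset is identified by its number and its gene. Whether the D2 sequence differs under these probes was not tested.

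Each probeset was described by its level, the authors' log2 value, and by its splicing index, which is that value minus the gene value on the same array. The gene value is the median of the gene's kept probesets. Probesets with a mean under 1.44 over the 22 arrays, which was the median for all probesets, were left out. In each gene the kept probeset with the lowest index difference, D2 minus B6, is called the lowest probeset. In every one of the 10 genes it was the dimmest kept probeset in D2, but rows dim in both strains had been left out. In Klhl20 such a row, 4802336, was dimmer still in D2 (mean -0.16, against 0.27 for the lowest probeset). So was row 5611854 of Arpp21 (mean 0.047 in D2, against 2.11 for its lowest probeset). The mean level of the lowest probeset ranged over the genes from -0.039 to 2.36 in D2 and from 5.45 to 8.18 in B6 (log2). In 7 of the 10 genes the D2 mean lay below the filter level, so these probesets passed the filter only through B6. Below that level the size of a fall is limited by the background, so the order of the falls is not informative. The gap between the dimmest B6 array and the brightest D2 array was at least 3.46 (Ociad1) and at most 5.33 (Fxyd7). The levels of the 2 strains did not overlap for any of the 10 lowest probesets, against 0.473% of all kept probesets that were lower in D2 without overlap. This contrast chose the genes, so nothing is read from that share.

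**Figure D1:**
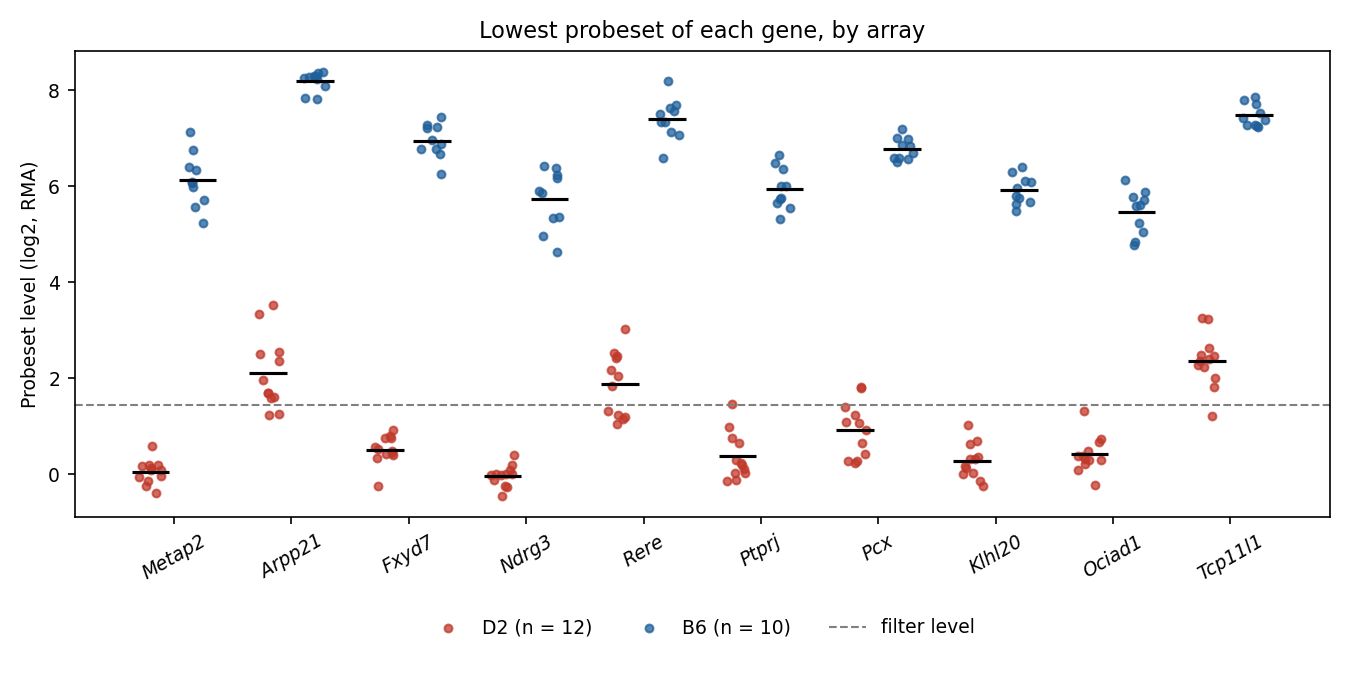
Level of the lowest probeset (log2, vertical axis) of each of the 10 genes (horizontal axis) on every array, with D2 left (red, n = 12) and B6 right (blue, n = 10), black bars at the means and a dashed line at the filter level of 1.44. No D2 array reaches the B6 arrays in any gene, and the D2 means of Arpp21, Rere and Tcp11l1 lie above the line.

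Metap2 and Pcx encode enzymes. Metap2 is a methionine aminopeptidase that removes the first methionine from newly made proteins. Its lowest probeset, 4566345, ran from -0.40 to 0.59 in D2 with a median of 0.075, against 5.23 to 7.12 in B6 with a median of 6.07 (level, log2). The means were 0.042 ± 0.25 in D2 (SD, n = 12) and 6.12 ± 0.56 in B6 (SD, n = 10). The D2 mean was higher than that of only 8.94% of all probesets, while the B6 mean was higher than that of 92.3%. The other 15 kept probesets of Metap2 differed by -0.31 to 0.35 on level, 2 lower and 13 higher in D2, and none was called. The lowest probeset ranked 10 of 16 by level in B6.

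Pcx encodes pyruvate carboxylase, the mitochondrial enzyme that makes oxaloacetate from pyruvate and that in brain is found mainly in astrocytes. Probeset 5255082 ran from 0.24 to 1.81 in D2 (median 0.99), against 6.49 to 7.20 in B6 (median 6.76). Its mean level was 0.93 ± 0.57 in D2 (SD, n = 12) and 6.78 ± 0.23 in B6 (SD, n = 10). Unlike in Metap2, the rest of the gene leaned the same way: 21 of the other 23 kept probesets were lower in D2 and 2 higher, with a median level difference of -0.22 and a range of -0.53 to 0.13. One of the 21 was called.

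Fxyd7 and Ptprj encode membrane proteins. Fxyd7 belongs to the FXYD family of small proteins that tune the sodium-potassium pump, and is known as a brain member of it. Probeset 5367122 ran from -0.25 to 0.93 in D2 (median 0.50), against 6.26 to 7.44 in B6 (median 6.93). The level difference was -6.44 ± 0.14 (SE), with the D2 mean below the filter level. It was the dimmest of the 10 kept probesets in D2 and the third brightest in B6. The other 9 kept probesets differed by -0.10 to 0.33, 2 lower and 7 higher in D2, and none was called on level.

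Ptprj encodes a receptor tyrosine phosphatase that sits in the cell membrane and removes phosphate from signalling proteins. For probeset 4382665 the level was -0.15 to 1.46 in D2 (median 0.21) and 5.31 to 6.64 in B6 (median 5.87). One of the 12 D2 arrays, at 1.46, thus lay above the filter level. The remaining 39 kept probesets lay between -0.24 and 0.54 on level difference, with 26 lower and 13 higher in D2, and none was called. This was the second longest of the 10 genes by kept probesets, and the lowest one ranked 29 of 40 by level in B6.

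Arpp21, Ndrg3 and Rere act inside the cell. Arpp21 is a phosphoprotein that responds to cyclic AMP and is rich in the striatum. Probeset 5400928 had a level of 1.23 to 3.52 in D2 (median 1.82) and of 7.81 to 8.38 in B6 (median 8.26). Its D2 mean, 2.11 ± 0.76 (SD, n = 12), lay above the filter level, and its B6 mean was 8.18 ± 0.20 (SD, n = 10). A second probeset of Arpp21, 4780785, also did not overlap between the strains. It ran from 7.35 to 8.52 in D2 and from 8.69 to 9.20 in B6, a called level difference of -0.84. The other 39 kept probesets differed by less, the lowest of them on the index at -0.28.

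Ndrg3 belongs to a family of proteins named after the growth-suppressing gene Ndrg1. Its probeset 4349310 was below the filter level on all 12 D2 arrays, at -0.46 to 0.39 (median -0.0095), against 4.64 to 6.42 in B6 (median 5.87). Its index was -8.53 in D2 and already -2.88 in B6, where it ranked 21 of 25 by level. Of the other 24 kept probesets, 23 were lower in D2 and 1 higher, within a narrow range of -0.46 to 0.012 on level, and 1 was called lower.

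Rere encodes an atrophin-type corepressor, a nuclear protein that helps to silence genes during development. Probeset 5261333 lay at 1.05 to 3.02 in D2 (median 1.94) and at 6.58 to 8.20 in B6 (median 7.42). The rest of the gene was split, with 14 of the other 35 kept probesets lower and 21 higher in D2. They ranged from -0.62 to 0.40 on level, with 1 called in each direction.

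Klhl20 is an adaptor that brings proteins to the CUL3 ubiquitin ligase. Probeset 4398580 was at -0.25 to 1.02 in D2 (median 0.23) and at 5.47 to 6.40 in B6 (median 5.87). It was the fourth brightest of 21 kept probesets in B6. Of the other 20, 17 were lower in D2 and 3 higher, from -0.71 to 0.32 on level, and 1 was called lower.

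Ociad1 encodes a protein of endosomes and mitochondria. For probeset 5149852 the level ran from -0.23 to 1.30 in D2 (median 0.35) and from 4.77 to 6.12 in B6 (median 5.59), a level difference of -5.04 ± 0.18 (SE) with the D2 mean below the filter level. Its remaining probesets lay on both sides of 0: 10 of 15 were lower in D2 and 5 higher, from -0.50 to 1.07, and 3 were called lower and 2 higher on level. Probeset 4978294, the brightest of the gene, ran from 9.99 to 10.43 in D2 and from 10.44 to 10.73 in B6. Probeset 5615736 went the other way, from 7.43 to 8.24 in D2 and from 6.81 to 7.40 in B6. Neither overlapped between the strains. The probeset with the largest rise, at 1.07, was not called, and its levels overlapped (2.80 to 5.94 in D2, 1.43 to 5.06 in B6).

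Tcp11l1 is a relative of the testis gene Tcp11. Its probeset 4359238 had levels of 1.20 to 3.26 in D2 (median 2.38), with the mean above the filter level, and of 7.23 to 7.86 in B6 (median 7.40). It was the dimmest of the 17 kept probesets in D2 and the brightest in B6. Of the other 16, 14 were higher in D2 and 2 lower. Probeset 5081257 was called higher on level by 1.10 ± 0.20 (SE), at 4.52 to 5.31 in D2 and 2.83 to 4.62 in B6, so that its strains overlapped at the edge.

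**Figure D2:**
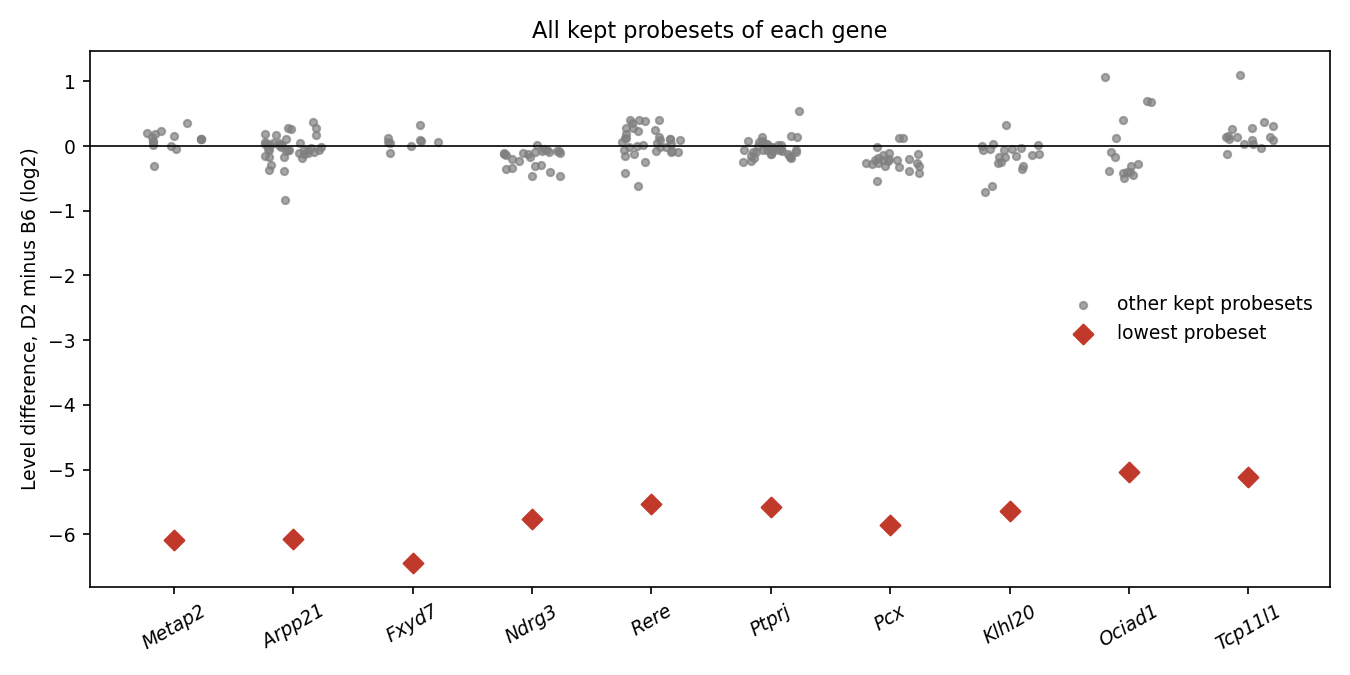
Level difference, D2 minus B6 (log2, vertical axis), of all 246 kept probesets of the 10 genes (horizontal axis), with the lowest probeset of each gene as a red diamond and the other 236 as grey points, spread sideways for visibility. The diamonds lie between -6.44 and -5.04, and the grey points between -0.84 and 1.10.

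The genes were chosen for such a probeset, and the counts that follow describe that choice. Over the 10 genes, 10 of the 246 kept probesets had an index difference of -1 or lower, against 0.35% of the 236114 probesets tested, and 10 were at -2 or lower. The other 236 kept probesets had a median level difference of -0.054, 140 of them lower and 96 higher in D2, and 226 of them differed by less than 0.5. On level, 8 of the 236 were called lower, against 2.24% of all kept probesets, and 4 were called higher, against 1.67%. A call is an adjusted p under 0.05 in limma's test over all 595203 kept probesets, with Benjamini-Hochberg adjustment. Of the 236, 2 were lower without overlap between the strains, against 0.473%, and 1 was higher, against 0.297%. These counts come from the contrast that chose the genes, and nothing is read from their share. The 9 rows that did not pass the filter had mean levels of -0.16 to 1.47 in D2 and -0.20 to 1.30 in B6, a range that held the D2 mean of 7 of the 10 lowest probesets. The largest difference among these 9 was 0.30.

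**Figure D3:**
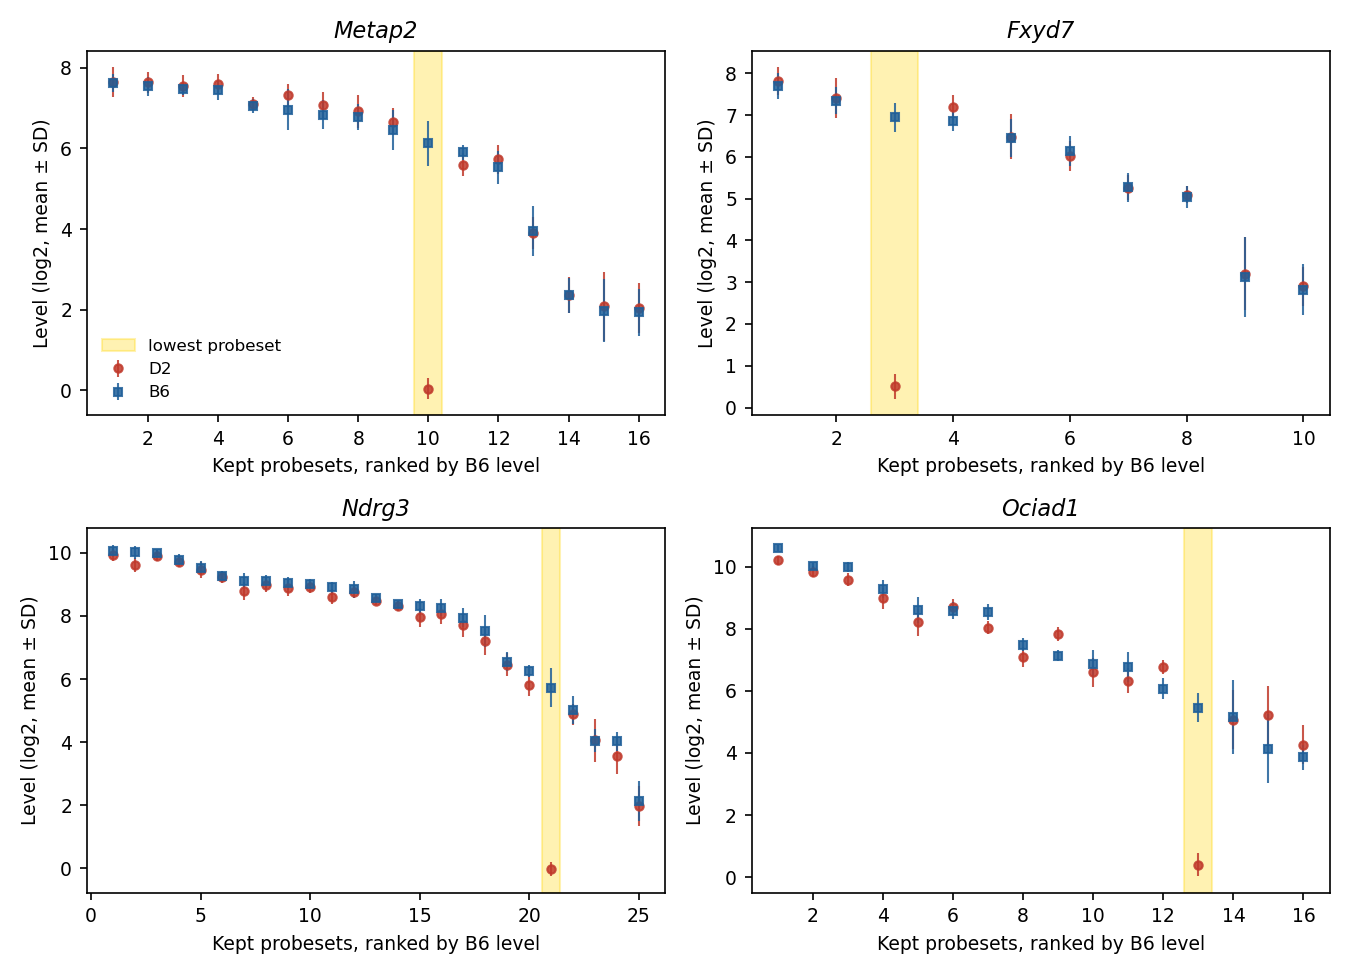
Mean level (log2, vertical axes, bars show the SD) in D2 (red circles, n = 12) and B6 (blue squares, n = 10) of the kept probesets of Metap2, Fxyd7, Ndrg3 and Ociad1, ranked by their B6 level (horizontal axes), with the lowest probeset shaded. Outside the shaded rank the D2 and B6 points of Metap2 and Fxyd7 differ by -0.31 to 0.35, while those of Ociad1 part in both directions.

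By B6 level within its gene, the lowest probeset ranked 1 of 17 in Tcp11l1 and 3 of 10 in Fxyd7, but 13 of 16 in Ociad1 and 21 of 25 in Ndrg3, and the B6 index ran from -2.88 in Ndrg3 to 1.55 in Rere. Levels of different probesets also depend on how well their probes bind, so the ranks do not show which parts of a transcript are abundant. Whether the number of a probeset follows its position was not tested. Within a gene the numbers spanned from 710696 to 1307292. The nearest ones by number, up to 2 on each side, differed on level by -0.41 to 0.40 over all 10 genes. All other kept probesets lay between -0.84 and 1.10, so small differences there do not bear on position.

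The spread over arrays of 1 strain was small beside the strain difference, but the probesets were chosen for that difference, so this only describes them. The SD of the lowest probeset's level ran from 0.22 (Ndrg3) to 0.76 (Arpp21) over the D2 mice and from 0.20 (Arpp21) to 0.62 (Ndrg3) over the B6 mice. The D2 mean of Ndrg3 lay below the filter level and that of Arpp21 above it, so these D2 values are not compared as variation between mice. Among the 10 B6 arrays, replicate 11 was the lowest for 7 of the 10 probesets and replicate 5 the highest for 5. These 2 arrays also had the highest array median of B6 (1.47, replicate 11) and the lowest (1.41, replicate 5). Without both, a choice made after seeing the data, the level differences ran from -6.49 to -5.05. On gene value 3 of the 10 genes were then called, as many as with all arrays, against 9.12% of all genes tested (10.8% with all arrays). Nothing is read from that count. Among the 12 D2 arrays no array was the highest for more than 2 of the 10 probesets, and replicate 14 was the lowest for 3.

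**Figure D4:**
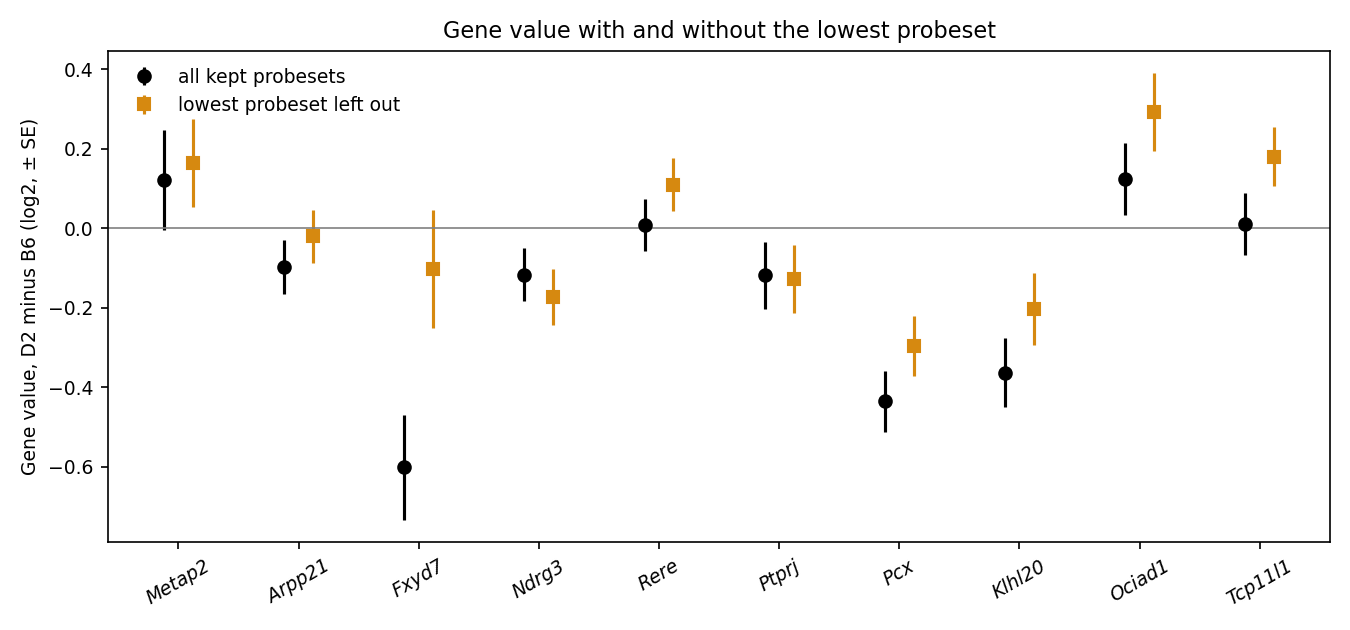
Difference of the gene value, D2 minus B6 (log2, vertical axis, bars show the SE), of each of the 10 genes (horizontal axis), from all kept probesets (black circles) and with the lowest probeset left out (orange squares). The difference of Fxyd7 shrinks from -0.60 to -0.10 when its lowest probeset is left out, while those of Metap2, Ndrg3 and Ptprj change by less than 0.1.

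How far the loss of 1 probeset bore on the gene value differed between the genes. With all kept probesets, 3 of the 10 genes were called, all lower in D2, against 8.26% of the 16016 genes tested, and 0 were called higher, against 2.57% (0 also at an unadjusted p under 0.05, limma). The 3 called genes were Fxyd7, Pcx and Klhl20. Each gene value includes the probeset that was chosen on this contrast, so nothing is read from their share. For Fxyd7 the gene value was 5.68 ± 0.29 in D2 (SD, n = 12) and 6.28 ± 0.36 in B6 (SD, n = 10), a difference of -0.60. When the lowest probeset was left out, an alternative added after seeing the data, the values were 6.02 ± 0.38 in D2 and 6.12 ± 0.36 in B6, a difference of -0.10 ± 0.15 (SE) that was not called. In genes called neither way, the difference moved from 0.010 to 0.18 in Tcp11l1 and from 0.0075 to 0.11 in Rere. It went lower in Ndrg3 (-0.12 to -0.17) and Ptprj (-0.12 to -0.13). With the lowest probesets left out, 0 of the 10 genes were called higher, and 2 were higher at an unadjusted p under 0.05 (limma). Fxyd7 had 10 kept probesets, the fewest of the 10 genes. The stricter filter at the 75th percentile, under which the difference was 0.043, removed the lowest probeset of Fxyd7 as well, so this value too is one without it.

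The same shift showed in the splicing index of Fxyd7, where 6 of the other 9 kept probesets were called with a higher index in D2. The largest difference of their own levels was 0.33, and none of them was called on level. These 6 are most of the 10 calls of a higher index among the 236 other probesets, against 0.894% of all probesets tested. Another 6 were called with a lower index, against 0.77%, of which 4 belonged to Ociad1.

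Klhl20 had a gene value of 4.89 ± 0.23 in D2 and 5.25 ± 0.14 in B6 (SD, n = 12 and 10), a difference of -0.36 that became -0.20 ± 0.091 (SE) without the lowest probeset and was then not called. Pcx was called both ways, at 5.91 ± 0.19 in D2 and 6.34 ± 0.11 in B6, a difference of -0.44 with all kept probesets and of -0.30 ± 0.075 (SE) without the lowest. Of the 4 astrocyte markers, Gfap (-0.80) and Aldoc (-0.25) were called lower in D2 by limma, while Slc1a2 (-0.18) and Aqp4 (0.0053) were not called. Gfap itself held a probeset at an index difference of -3.34. The summed level of the 4 (log2 of the sum of the linear gene values) was 10.87 to 11.10 in D2 (median 11.00) and 11.15 to 11.27 in B6 (median 11.21). Aldoc, the brightest of the 4 (10.30 in D2 and 10.55 in B6), weighs most in this sum, so it is not a separate result. The part of these markers in the value of Pcx was not tested. With the array median as a covariate none of the 10 genes was called by limma, against 3.09% of all genes tested. Pcx was then at -0.38, Fxyd7 at -0.48 and Klhl20 at -0.17, and 3 of the 10 genes had an unadjusted p under 0.05 (limma). The array medians move with strain, and their part in these gene values was not tested further.

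For Ociad1 the median and the majority of its probesets pointed in opposite directions. The gene value without the lowest probeset was higher in D2 by 0.29 ± 0.098 (SE), not called, although 10 of the 15 probesets were lower. The 2 called rises were at ranks 9 and 12 of 16 by B6 level. Probeset 5615736, at rank 9, lay near the gene value and crossed it, with an index of -0.21 in B6 and 0.36 in D2. Probeset 4434687, at rank 12, stayed below the gene value in both strains (-1.27 in B6 and -0.71 in D2). Ociad1 was called higher after centring the arrays on their median gene value (0.22) and with the filter at the 75th percentile (0.29), which removed its lowest probeset.

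**Figure D5:**
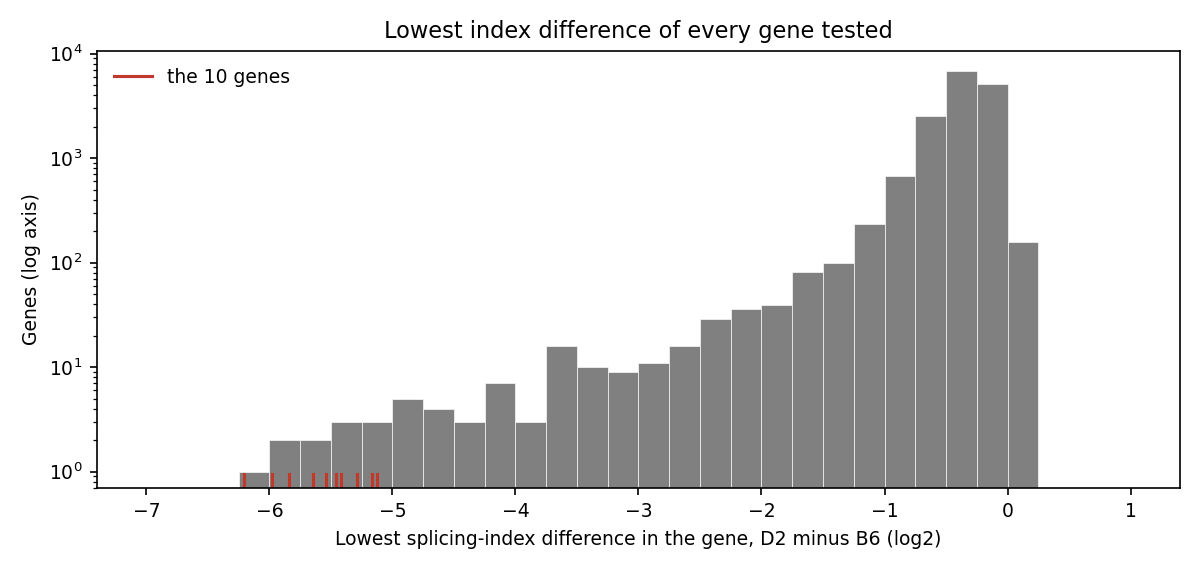
Number of genes (vertical log axis) by the lowest index difference, D2 minus B6, found among their kept probesets (horizontal axis, log2), over the 16016 genes tested, with red ticks at the 10 genes. The ticks run from -6.20 to -5.12, and 68 genes in all lie at -3 or lower.

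Among all genes tested, 68 of 16016 (0.425%) had a kept probeset at an index difference of -3 or lower, and 11 of 16016 (0.0687%) at -5 or lower, the 10 genes and Pcdhgb5. A rise of 3 or higher was found in 10 genes (0.0624%). All 11 genes at -5 or lower had 1 probeset at -1 or lower and no more, as did 48 of the 68 at -3 or lower (70.6%). The 10 genes were chosen on this difference, so their place in it is no result. Just inside the limit stood Ociad1 (-5.17) and Tcp11l1 (-5.12). Pcdhgb5, a clustered protocadherin with 5 kept probesets, was at -5.19 and was not among the 10. Just outside stood Fmn2 (-4.92), at 1.87 ± 1.01 in D2 and 7.28 ± 0.32 in B6, and Mertk (-4.90), at 0.067 ± 0.41 in D2 and 5.40 ± 0.30 in B6 (level, SD, n = 12 and 10).

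The families and pathways of the 10 genes were not part of that choice, but their lists were made with earlier results of these data known. Of 121 listed relatives and partners, 110 were measured. At gene level 11 were called lower in D2 (10% of 110, against 8.26% of all genes tested) and 0 higher (against 2.57%), with 22 lower and 4 higher at an unadjusted p under 0.05 (limma). Their median difference was -0.079, beside -0.053 for all genes tested. The largest was that of Mpc2, a subunit of the mitochondrial pyruvate carrier, which delivers the substrate of pyruvate carboxylase. It was lower in D2 by 1.02 ± 0.19 (SE; 3.77 ± 0.37 in D2 and 4.79 ± 0.58 in B6, SD; limma adjusted p = 0.000428), while its partner Mpc1 was at 0.30, not called. Of the 22 pyruvate and biotin enzymes, 3 were lower and 19 not called, with Got1, an aspartate aminotransferase, second among those called (-0.23, limma adjusted p = 0.013).

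Of 29 KLHL genes and partners of the CUL3 ligase, 5 were lower (17.2%, against 8.26% of all genes tested) and 24 not called, and 9 were lower at an unadjusted p under 0.05 (limma). Their calls were led by Klhl12 (-0.50, limma adjusted p = 0.010) and Klhl5 (-0.47, limma adjusted p = 0.020). Ociad2, the close relative of Ociad1, was lower by 0.59 ± 0.13 (SE), at 5.61 ± 0.33 in D2 and 6.19 ± 0.27 in B6 (SD; limma adjusted p = 0.0024), and the prohibitins Phb and Phb2 were not called. Ociad2 was thus the 1 gene called of 3 in that list (33.3%). Of the 3 other NDRG genes, 1 was called lower (33.3%), Ndrg2 (-0.24, limma adjusted p = 0.048). Of 8 measured genes of N-terminal protein processing, the acetyltransferase gene Naa50 was lower (-0.44, limma adjusted p = 0.0081).

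No gene was called among 10 measured FXYD and sodium-potassium pump genes (Atp1a4 at 0.38), 9 genes listed with Arpp21 (Pde10a at -0.18), 10 corepressor partners of Rere (Hdac2 at -0.27), 14 other receptor phosphatases (Ptprf at 0.25) or 2 relatives of Tcp11l1 (Tcp11 at 0.36). At an unadjusted p under 0.05, in limma, the counts in these 5 lists were 1, 2, 0, 2 and 2. With the array median as a covariate 2 of the 110 genes were called, against 3.09% of all genes tested.

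One relative of Ptprj also held a probeset at an index difference of -3 or lower, 1 of the 110 genes against 0.425% of all genes tested. This was Ptpro, a receptor phosphatase of the same subtype, named here after its values were seen. The probeset ran from 2.84 to 4.27 in D2 (median 3.50) and from 7.47 to 7.70 in B6 (median 7.53), and a second probeset of Ptpro was at -2.65 on the index. Its signal in D2 thus lay well above the filter level, and the fall was not held by 1 probeset. In Ptprd, another receptor phosphatase, 1 of 80 kept probesets was at -2.90, and the next at -0.68.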

How the data were processed

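The authors deposited log2 expression values per probeset, which the submitters' processing notes credit to RMA in affy 1.12.2 under R 2.6.0. RMA options, the probeset definition and the genome build are not given in the sources used here, so no coordinates are printed. Per the labels, 24 arrays were hybridised and 2 that another scanner read were left out. The table held 1201338 rows, 10932 of them empty. Gene names come from the platform annotation, with older symbols updated through the RefSeq gene table of GRCm38.p6. Arrays have no read depth, so their number limits the precision.

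D2 minus B6 was fitted with limma 3.58.1 in R 4.3.3, using eBayes after lmFit and Benjamini-Hochberg adjustment over all features tested, and called at an adjusted p under 0.05. The filter, a mean at or above 1.44, left 595203 probesets. Gene values were medians of a gene's kept probesets and were made for 16016 genes, each with at least 3 of them. The index, over 236114 probesets, was called at an absolute difference of at least 0.5 as well. Functions were tested on simulated data. Figures were drawn with matplotlib 3.10.9.

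Genes, lists and tests were chosen with earlier results of these data known. Named probesets are the lowest of each gene, the extremes of the others and those that did not overlap. From each family the text names up to 2 called genes, or 1 uncalled gene, with the largest difference. Brain and other tissue markers and 3 strain genes served as checks. Alternatives varied the filter, the gene value, the scaling, the letter in the array file names (18 arrays A, 4 arrays B, both strains in each) and the arrays used.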

Additional observations from a re-analysis of the deposited data

Results flagged for a closer look

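In 30 groups of 10 B6 values (level, index and gene value of each gene), 1 array lay far from the others. The gene value of Rere on the array of B6 replicate 4 was 6.18 (log2), while the other 9 B6 arrays lay between 5.69 and 5.92. The gap to its nearest neighbour was 0.547 of the whole range. Chance alone flags about 1 of 20 groups. The 30 groups are not independent, since the index is the level minus the gene value. The 12 D2 arrays were too many for this comparison.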

How the results depend on the processing

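The lowest probesets kept their direction under every alternative run, with index differences between -7.04 and -4.70 and level differences between -7.10 and -4.47. Both of the lowest of these came from the 4 arrays with file letter B alone. Counts of calls moved more. With the filter at the 75th percentile, 4 of the 10 lowest probesets were kept. Of the kept probesets of the 10 genes, 4 were at -1 or lower and 16 were called on the index (26 otherwise). Among all genes, 28 (68 otherwise) had a probeset at -3 or lower. This filter uses the mean over the 22 arrays, which a fall in D2 itself lowers. The gene value of Fxyd7 turned to 0.043 there, its lowest probeset being among those removed. With the mean over probesets as gene value, 8 of the 10 genes (3 otherwise) and 18 family genes (11 otherwise) were called by limma. The share over all genes tested was 17% there (10.8% otherwise). This mean takes in each lowest probeset, which was chosen on this contrast, so nothing is read from the 8. With the array median as a covariate 0 of the 10 genes and 2 family genes were called, against 3.09% of all genes tested. At an unadjusted p under 0.05 (limma) the counts were 3 and 13, and the cause was not tested. With the 4 letter B arrays alone 9 member probesets were called on level (22 otherwise), against 0.0733% of all kept probesets. On the index 0 were called, with 0 genes and 0 family genes (26, 1 and 11 at an unadjusted p under 0.05, limma), against 0.468% of all genes tested. Fewer arrays were used there, and the cause of the lower counts was not tested. With each lowest probeset left out, 1 of the 10 genes was called. No paired analysis was possible because the strains share no replicate numbers.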
